A study of Mus musculus with 11 samples.

Results

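10 genes of the neutrophil program were followed in left ventricle RNA of mice with and without myocardial infarction (MI). They were S100a8, S100a9, Csf3r, Retnlg, Hdc, Clec4d, Clec4e, Trem1, Lcn2 and Il1r2, chosen by symbol as granule, cytosolic and receptor genes of neutrophils. All 10 were found among the 25006 genes with counts, and all 10 were among the 14779 genes that passed the filter on low counts and were tested. The 11 libraries came from 11 mice in 4 groups. Naive control hearts (libraries M44 and M45, n = 2) and naive Vegfc-deficient hearts (M34, M149 and M150, n = 3) were not infarcted. MI control hearts (M006, M38 and M40, n = 3) and MI Vegfc-deficient hearts (M35, M900 and M913, n = 3) were taken 9 days after permanent ligation of the left anterior descending coronary artery, as infarcted left ventricle. Naive tissue was matched to it by area and mass. Vegfc-deficient mice were Vegfc fl/fl; LysMCre. In this model Cre is driven from the Lyz2 locus and acts in myeloid cells, neutrophils included, so the cells that express the genes described here could carry the deletion. The control mice are Vegfc fl/fl by the genotype label but LysMCre by the protocol text, so it is not settled which of the alleles they carried. The ages of the mice are not given in the labels.

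Neutrophils enter an infarct first, within hours, and are then cleared while monocytes and macrophages take over the repair. Their precursors in bone marrow load primary granules (myeloperoxidase, elastase), then secondary granules (lactoferrin, lipocalin 2) and last gelatinase granules, so the transcripts of granule proteins mark the stage of the cell. S100A8 and S100A9 fill the neutrophil cytosol and form calprotectin, while the receptor genes here are shared to a varying extent with monocytes and macrophages.

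Cardiomyocyte markers were abundant in every naive library. The summed level of 8 cardiomyocyte markers was 49300 to 66900 CPM (reads scaled to a common library size by the trimmed mean of M-values, TMM) in naive libraries and 3210 to 22100 CPM in MI libraries, and 6 of the 8 fell after MI in each genotype (4 without M900 in Vegfc-deficient hearts), while Nppa rose. M40 and M900, on which several results turn, had the lowest cardiomyocyte sums of their groups, at 3210 and 5650 CPM. Total counts were 10824989 to 26782728 per library, so that 3 counts stood for 0.101 to 0.363 CPM. Vegfc, the targeted gene, was at 21.9 to 45.5 CPM in all libraries with no separation of the genotypes. Lyz2, the locus of Cre, was at 12.4 to 1390 CPM in all Vegfc-deficient libraries except M149. There it was at 4560 CPM, above both naive controls (2120 and 2280 CPM), which taken alone goes against its label. Chil3 was also higher in M44, M45 and M149 (580, 601 and 1680 CPM) than in M150 and M34 (26 and 54.2 CPM). So was the macrophage marker Cd68 (205, 293 and 527 against 75.8 and 88.9 CPM), but not C1qa (403, 415 and 431 against 466 and 453 CPM). Whether the Lyz2 level of M149 came from its genotype or its cells was not tested. M149 is therefore marked as labelled Vegfc-deficient, and every naive Vegfc-deficient mean and fold change includes it unless stated. All 5 naive libraries expressed Y-linked genes (152 to 195 CPM over 4 genes) and all 6 MI libraries expressed Xist (188 to 403 CPM). Sex and MI therefore cannot be told apart in any comparison of MI with naive hearts. M900 also held Y-linked reads, at 1.84 CPM against at most 0.237 CPM in the other MI libraries. Xist was at 8.11 and 11.8 CPM in naive M150 and M34 and at most 1.76 CPM in the other naive libraries. Mixing between libraries was not tested.

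The neutrophil identity of the 10 genes was checked against defining markers that are not among them. Ly6g, the surface antigen that defines mouse neutrophils, was at or near 0 in all 11 libraries (0 to 0.407 CPM, at most 10 reads) and too low to be tested. Cxcr2, the chemokine receptor of mature neutrophils, was at 0.181 to 0.994 CPM in 9 libraries and reached 3.16 CPM in M40 and 4.4 CPM in M900. Adgre1, a single macrophage marker, was at 63.9 to 135 CPM in naive and 198 to 434 CPM in MI libraries. As lists, macrophage markers summed to 1670 to 2360 CPM in naive and 2340 to 6190 CPM in MI libraries. Mature neutrophil surface and cytosolic genes summed to 231 to 264 and 118 to 185 CPM, of which G0s2 alone gave 183 to 218 CPM in naive libraries. In whole tissue, fewer cells of a type and less RNA per cell cannot be told apart, so the values below are levels in tissue and not in neutrophils.

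4 of the genes lie in neighbouring pairs. S100a8 and S100a9 are 22596 bases apart on chromosome 3, and Clec4d and Clec4e are 6523 bases apart on chromosome 6, in both cases on opposite strands and with 0 annotated genes between them. The read ratio within the S100 pair varied less over the libraries than that within the Clec4 pair, whose members had the same order of libraries within each group, so the sequences before their start sites are shown. They are from RefSeq on GRCm38.p6, 5′ to 3′ on the strand of each gene. Each covers the 150 bases before the RefSeq start site, except that of S100a8, which was stopped after 57 bases where an earlier start is annotated. The windows are chr3:90668921-90668977 (plus strand), chr3:90695722-90695871 (minus strand), chr6:123261957-123262106 (plus strand) and chr6:123289872-123290021 (minus strand). Capitals mark matches to a C/EBP motif (TTNNGNAA) and a TATA box (TATAAA), searched on both strands.
S100a8: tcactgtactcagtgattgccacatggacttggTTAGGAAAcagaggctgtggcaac
S100a9: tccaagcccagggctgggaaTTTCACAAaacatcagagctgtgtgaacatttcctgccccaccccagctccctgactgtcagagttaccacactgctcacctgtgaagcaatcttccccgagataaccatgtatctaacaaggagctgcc
Clec4d: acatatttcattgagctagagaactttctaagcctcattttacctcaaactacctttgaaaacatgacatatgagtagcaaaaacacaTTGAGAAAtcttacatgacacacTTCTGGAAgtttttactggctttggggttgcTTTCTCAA
Clec4e: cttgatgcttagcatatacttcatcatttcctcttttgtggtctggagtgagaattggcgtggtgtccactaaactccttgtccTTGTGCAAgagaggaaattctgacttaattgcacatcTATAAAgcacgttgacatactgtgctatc
In windows of 300 bases around the start site, 250 before and 50 after it, the C/EBP motif was in 7 of the 10 promoters, against 40.7% of 32851 mouse promoters. C/EBP factors drive granule genes during neutrophil maturation. Clec4d had 3 C/EBP matches, 62, 39 and 8 bases before its start site. The core of PU.1 (GAGGAA), a factor of all myeloid cells, was in 6 of the 10 against 28.3% of all promoters. TATAAA was in S100a8, S100a9 and Clec4e, against 13.6%. It lay 30 and 29 bases before the start site in S100a8 and Clec4e, but from base 1 after it in S100a9. The matches of both S100 genes lie outside the sequences printed. These are matches of letters and were not tested as binding sites.

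S100a8 (ENSMUSG00000056054, chromosome 3 from 90668978 to 90670035) and S100a9 (ENSMUSG00000056071, chromosome 3 from 90692632 to 90695721) had the widest range of the cytosolic and granule genes. S100a8 was at 4.91 CPM in M44 and 6.89 CPM in M45, the naive controls, and M149, M150 and M34, labelled naive Vegfc-deficient, held 25.6, 25.4 and 24.9 CPM. S100a8 levels after MI were 8.67, 11 and 124 CPM in control hearts M006, M38 and M40, with 5.05, 51.3 and 8.61 CPM in Vegfc-deficient hearts M35, M900 and M913. The highest level in each MI group thus came from 1 library, M40 at 11.3 times and M900 at 5.95 times the next in its group, while the naive groups were tight. S100a9 was likewise highest in M40 and M900, at 6.15 and 14.8 CPM in naive controls and 58.4, 38.6 and 60.7 CPM in M149, M150 and M34, labelled naive Vegfc-deficient. In infarcted hearts the level was 18.9, 16.3 and 182 CPM in M006, M38 and M40, against 8.93, 96.1 and 17.8 CPM in M35, M900 and M913. S100a9 reads were 1.25 to 2.44 times S100a8 reads in all 11 libraries, which is 1.67 to 3.24 times per kilobase of exon.

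**Figure D1:**
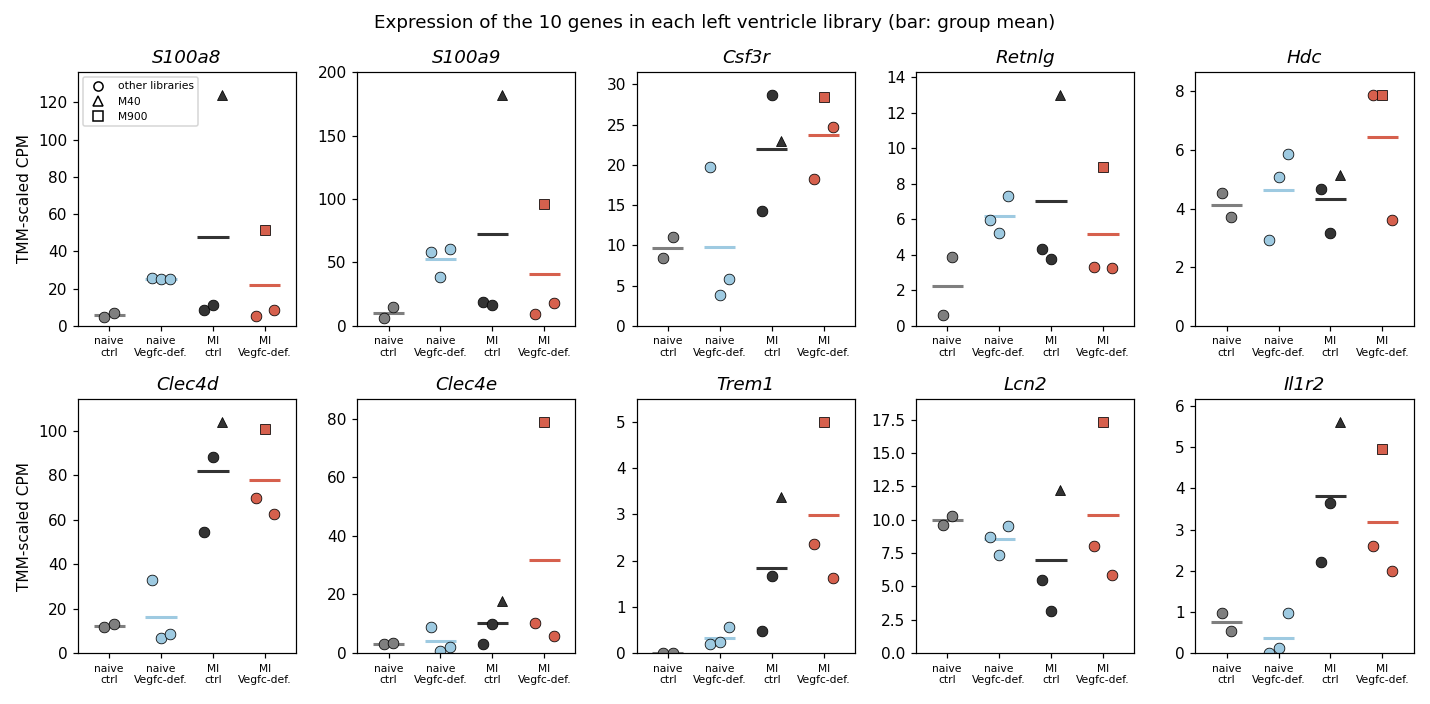
TMM-scaled CPM of the 10 genes (vertical axes, linear, from 0) in each library of the 4 groups (horizontal axes); points are libraries, bars are group means, the triangle is M40 and the square is M900. In S100a8, S100a9, Retnlg and Lcn2 these libraries stand apart from the rest of their groups, while Clec4d, Trem1 and Il1r2 are higher in all 6 MI libraries than in the naive libraries of the same genotype.

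Neither S100a8 nor S100a9 passed edgeR's test after MI, while DESeq2 called S100a9 higher in control hearts (2.72, adjusted p = 0.0483). The log2 fold change of S100a8 was 3.03 in control hearts (SE 1.32, adjusted p = 0.0791, edgeR's quasi-likelihood test adjusted over all 14779 genes by the Benjamini-Hochberg method) and -0.22 in Vegfc-deficient hearts (SE 1.02, adjusted p = 0.864, same edgeR test). For S100a9 the values were 2.79 (SE 1.27, adjusted p = 0.0894) and -0.36 (SE 0.993, adjusted p = 0.773) in the same edgeR fit. Without M40 the control values were 0.74 for S100a8 and 0.75 for S100a9, whereas S100a8 was called higher in control hearts without M006 (3.50, adjusted p = 0.0437, edgeR) or without M900 (2.98, adjusted p = 0.047, edgeR). Without M900 the values in Vegfc-deficient hearts were -1.89 for S100a8 and -1.98 for S100a9 (adjusted p = 0.155 and 0.128, edgeR). With both libraries left out, S100a8 and S100a9 were called lower after MI in Vegfc-deficient hearts (log2 fold changes -1.89 and -1.98, adjusted p = 0.000713 and 0.00412, edgeR). Red cell markers were called lower there too, 5 of 5 with all libraries (27.7% of all genes) and 4 of 5 without both. Their sum was 1890 to 4380 CPM in naive and 309 to 654 CPM in MI Vegfc-deficient libraries. In control hearts 0 of 5 were called, and the part of blood in the S100 values was not tested.

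Retnlg (ENSMUSG00000022651, chromosome 16), a resistin-like protein of the neutrophil lineage, also had its highest MI levels in M40 and M900. It was at 0.624 and 3.9 CPM in naive controls M44 and M45 and at 5.98, 5.2 and 7.32 CPM in M149, M150 and M34, labelled naive Vegfc-deficient. In infarcted hearts the level was 4.31, 3.75 and 13 CPM in M006, M38 and M40, against 3.29, 8.97 and 3.27 CPM in M35, M900 and M913. M40 and M900 were again the highest of their groups, and the other 4 MI libraries lay within 3.27 to 4.31 CPM. Its log2 fold change after MI was 1.64 in control hearts (SE 0.792) and -0.25 in Vegfc-deficient hearts (SE 0.649), with adjusted p of 0.108 and 0.756 by edgeR. Without M45, the higher of the naive controls, the control value was 3.48 and was called (adjusted p = 0.0375, edgeR).

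Lcn2 (ENSMUSG00000026822, chromosome 2), the secondary granule protein that binds bacterial siderophores, is also made by injured cardiomyocytes and other cells. It was at 9.63 and 10.3 CPM in naive controls and at 8.73, 7.38 and 9.52 CPM in M149, M150 and M34, labelled naive Vegfc-deficient. It was at 5.49, 3.14 and 12.2 CPM in MI controls M006, M38 and M40, whereas 7.99, 17.3 and 5.84 CPM were found in M35, M900 and M913. All other MI libraries lay below both naive controls, and only M40 and M900 lay above them. Lcn2 had a log2 fold change of -0.52 in control hearts (SE 0.544, adjusted p = 0.446, edgeR) and 0.28 in Vegfc-deficient hearts (SE 0.491, adjusted p = 0.644, edgeR). With M40 and M900 both left out it was -1.25 in control hearts, called lower (adjusted p = 0.0115, edgeR), and -0.32 in Vegfc-deficient hearts (adjusted p = 0.373, edgeR).

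Hdc (ENSMUSG00000027360, chromosome 2) encodes histidine decarboxylase, which makes histamine in immature neutrophils, mast cells and basophils. It stayed within 2.94 to 7.88 CPM in all 11 libraries. It was at 4.55 and 3.72 CPM in naive controls M44 and M45 and at 2.94, 5.08 and 5.86 CPM in M149, M150 and M34, labelled naive Vegfc-deficient. MI controls M006, M38 and M40 were at 4.68, 3.18 and 5.14 CPM and MI Vegfc-deficient M35, M900 and M913 at 7.87, 7.88 and 3.6 CPM. The groups overlapped in every comparison. The log2 fold change after MI was 0.07 in control hearts (SE 0.411, adjusted p = 0.903, edgeR) and 0.48 in Vegfc-deficient hearts (SE 0.365, adjusted p = 0.284, edgeR). Of 6 mast cell markers tested, the protease genes Cpa3, Cma1 and Mcpt4 fell in Vegfc-deficient hearts (log2 fold changes -1.74, -1.64 and -2.31), Mcpt4 alone fell in control hearts (-1.73), and the receptor gene Kit rose in both. Without M40 Mcpt4 was not called in control hearts, and without M900 1 of the 6 fell in Vegfc-deficient hearts. The summed mast cell level was 47.4 to 90.4 CPM in naive and 20.4 to 63.4 CPM in MI libraries, and its part in the level of Hdc was not tested.

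Among the receptor genes, Clec4d (ENSMUSG00000030144, chromosome 6 from 123262111 to 123275265) rose after MI in both genotypes. It encodes a C-type lectin that recognises mycobacterial glycolipid and signals through the Fc receptor gamma chain. Clec4d was at 11.7 and 12.9 CPM in naive controls and at 33.1, 6.66 and 8.63 CPM in M149, M150 and M34, labelled naive Vegfc-deficient. It reached 54.5, 88.1 and 104 CPM in M006, M38 and M40, with 69.9, 101 and 62.8 CPM in M35, M900 and M913. Every MI library was above every naive library, and M149 was the highest naive library. The log2 fold change was 2.75 in control hearts (SE 0.626, adjusted p = 0.00499, edgeR), a fold of 6.71, and 2.27 in Vegfc-deficient hearts (SE 0.522, adjusted p = 0.00411, edgeR), a fold of 4.82. Without M149 the latter was 3.34.

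Clec4e (ENSMUSG00000030142, chromosome 6 from 123281789 to 123289870), its neighbour, encodes Mincle, a lectin that senses glycolipids and material of dead cells. It was at 3.21 and 3.26 CPM in naive controls and at 8.82, 0.847 and 2.2 CPM in M149, M150 and M34, labelled naive Vegfc-deficient. In infarcted hearts the level was 3.23, 10 and 17.9 CPM in M006, M38 and M40, whereas 10.3, 78.8 and 5.88 CPM were found in M35, M900 and M913. M900 held 7.66 times the level of the next library of its group, and the MI and naive ranges overlapped in both genotypes. Clec4e had a log2 fold change of 1.69 in control hearts (SE 1.23, adjusted p = 0.273, edgeR) and 2.99 in Vegfc-deficient hearts (SE 1.08, adjusted p = 0.0355, edgeR). Without M900 the value was 0.998 (adjusted p = 0.356, edgeR), and the call was also lost without M34 (2.68, adjusted p = 0.108, edgeR), without M150 (2.54, adjusted p = 0.108, edgeR) and with limma-voom (2.71, adjusted p = 0.157). Without M149 it was 4.31.

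The ratio of the lectins was not constant as that of the S100 genes was. Clec4d reads were 3.64 to 7.86 times Clec4e reads in naive libraries. In MI libraries the ratio ran from 16.9 in M006 through 5.82 in M40 to 1.28 in M900. In M900 Clec4e was at its highest while Clec4d (101 CPM) lay within the range of the other MI libraries.

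**Figure D2:**
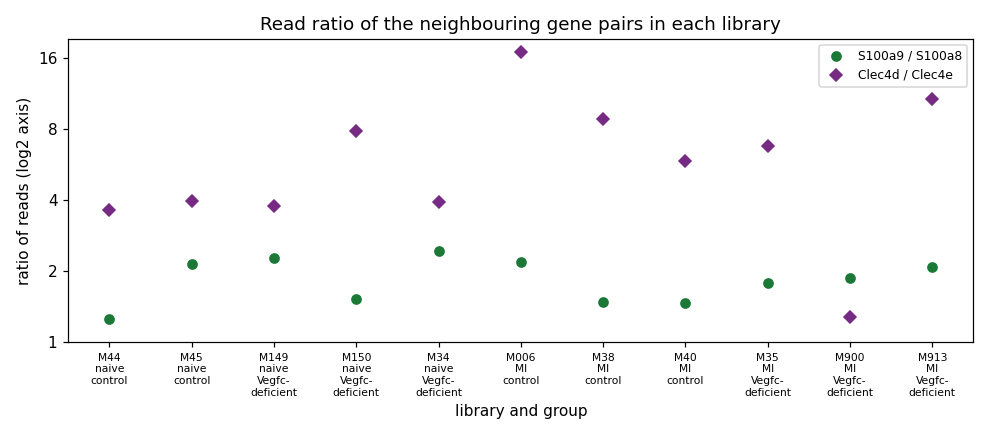
Reads of S100a9 over S100a8 (circles) and of Clec4d over Clec4e (diamonds) on a log2 vertical axis, for each library on the horizontal axis, 1 point per library and no error. The S100 ratio stays within 1.25 to 2.44, while the Clec4 ratio runs from 16.9 in M006 to 1.28 in M900.

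Trem1 (ENSMUSG00000042265, chromosome 17) encodes a receptor of neutrophils and monocytes that amplifies inflammatory signals through DAP12. It had 0 reads in both naive control libraries and 2, 2 and 7 reads in M149, M150 and M34, labelled naive Vegfc-deficient (0.196, 0.242 and 0.57 CPM). It was at 0.484, 1.66 and 3.38 CPM in M006, M38 and M40, whereas 2.35, 4.99 and 1.62 CPM were found in M35, M900 and M913. In Vegfc-deficient hearts all MI libraries were above all naive libraries, with a log2 fold change of 3.07 (SE 0.819, adjusted p = 0.0102, edgeR). In control hearts Trem1 was at least 6.82-fold higher after MI (mean 1.84 CPM against a floor of 3 reads per library, 0.27 CPM), with an adjusted p of 0.00599 by edgeR. Trem1 overlaps a pseudogene on the opposite strand, and whether counting used the strand is not stated in the sources used here.

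Il1r2 (ENSMUSG00000026073, chromosome 1) encodes the decoy receptor that binds interleukin 1 without signalling. It was at 0.981 and 0.544 CPM in naive controls M44 and M45 and at 0, 0.121 and 0.977 CPM in M149, M150 and M34, labelled naive Vegfc-deficient. In infarcted hearts the level was 2.21, 3.65 and 5.61 CPM in M006, M38 and M40, whereas 2.59, 4.95 and 1.99 CPM were found in M35, M900 and M913. Every MI library was above every naive library. The log2 fold change was 2.97 in Vegfc-deficient hearts (SE 0.829, adjusted p = 0.0112, edgeR) and 2.32 in control hearts, just short of the threshold (SE 0.888, adjusted p = 0.0501, edgeR). The value in Vegfc-deficient hearts was 5.69 without M34, the only library of its group with more than 1 read, and 2.41 without M149, and it was called in both fits. With 0 and 1 reads left in the naive group, the first of these depends on the prior count. The control value was called without M149, M34 or M006 (adjusted p = 0.0243, 0.0162 and 0.0427, edgeR) and by DESeq2 (adjusted p = 0.0133), and was 1.94 without M40 (adjusted p = 0.111, edgeR). Il1r2 overlaps an antisense gene and an unverified transcript on its own strand.

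Csf3r (ENSMUSG00000028859, chromosome 4) encodes the receptor of granulocyte colony-stimulating factor, which drives the making of neutrophils. It was at 8.38 and 11 CPM in naive controls and at 19.7, 3.87 and 5.78 CPM in M149, M150 and M34, labelled naive Vegfc-deficient. In infarcted hearts the level was 14.3, 28.7 and 23 CPM in M006, M38 and M40, whereas 18.2, 28.4 and 24.7 CPM were found in M35, M900 and M913. All MI controls lay above the naive controls, and in Vegfc-deficient hearts only M149 reached the MI range. Csf3r had a log2 fold change of 1.28 in Vegfc-deficient hearts (SE 0.502, adjusted p = 0.0494, edgeR) and 1.19 in control hearts (SE 0.574, adjusted p = 0.108, edgeR), where it was called without M149 (adjusted p = 0.0135, edgeR). The call in Vegfc-deficient hearts lay at the threshold and was lost when any of 9 of the 11 libraries was left out, all but M149 and M35 (without M900, 1.11, adjusted p = 0.143, edgeR), and the value was 2.28 without M149. Csf3, its ligand, had 20 reads in M900 and at most 2 in any other library.

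In all, 2 of the 10 genes rose after MI in control hearts, Clec4d and Trem1, where 26.3% of all genes tested were called higher and 24.1% lower. In Vegfc-deficient hearts 5 rose, Csf3r, Clec4d, Clec4e, Trem1 and Il1r2, against 30% of all genes higher and 27.7% lower. None of the 10 was called lower in either. The median log2 fold change of the 10 was 2.01 in control hearts, also with Trem1 at its bound, and 0.88 in Vegfc-deficient hearts, and that of all genes was 0.13 and 0.10. Groups did not overlap, with MI higher, for 6 of the 10 genes in control hearts (39.1% of all genes) and 3 in Vegfc-deficient hearts (33.6%). By edgeR with all libraries the called genes were all receptor genes, and 0 of the 5 granule, cytosolic or enzyme genes passed. In control hearts S100a8 and S100a9 had larger log2 fold changes (3.03 and 2.79) than Clec4d (2.75), with a larger SE (1.32 and 1.27 against 0.626). S100a8, S100a9 and Retnlg were called in some other settings, and the calls of Csf3r and Clec4e were lost in some. A difference between the classes was not tested. The difference between the genotypes in their response to MI was tested by the interaction term, which called 0 of the 10 and 0% of all genes (0 of 14779, edgeR; 1226 at an unadjusted p under 0.05, none of them among the 10). Its smallest adjusted p among the 10 was 0.62, for S100a8 (-3.25, SE 1.64) and S100a9 (-3.15, SE 1.58).

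**Figure D3:**
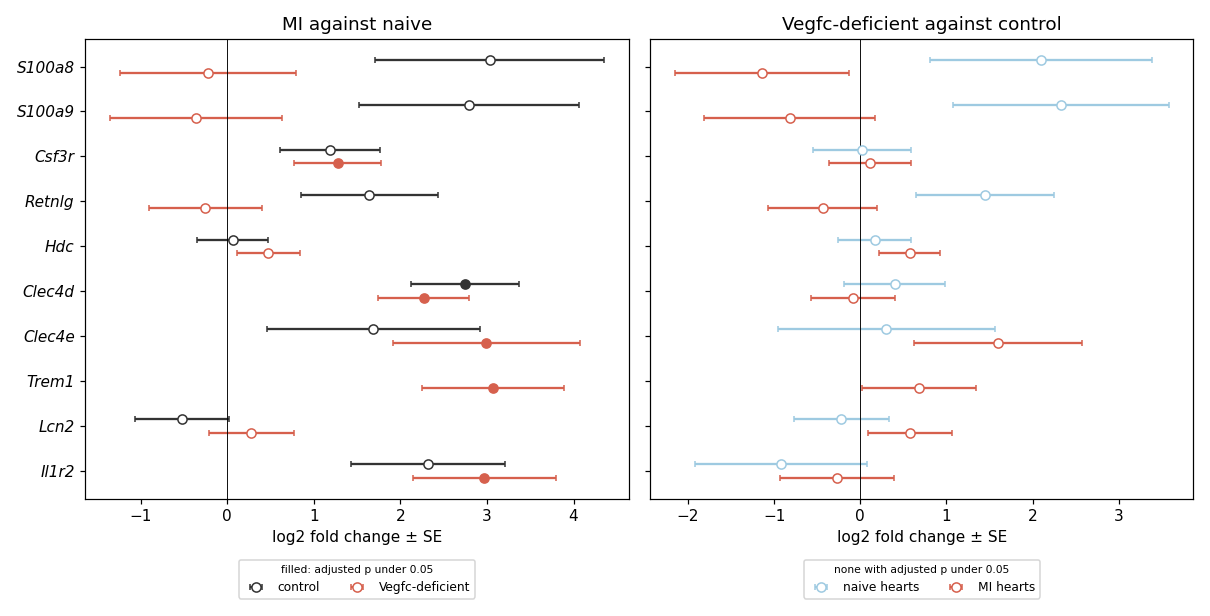
Log2 fold changes with SE (horizontal axes) of the 10 genes (vertical axis) for MI against naive in each genotype (left) and Vegfc-deficient against control in each state (right); filled points had an adjusted p under 0.05 by edgeR. Trem1 is left out where naive controls, at 0 reads, are the reference. Only receptor genes are filled at left, and no point is filled at right. In control hearts the open points of S100a8 and S100a9 lie at 3.03 and 2.79 and the filled point of Clec4d at 2.75.

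The 5 genes that rose were read beside macrophage markers, since macrophages express these receptors too. Of 10 macrophage markers 7 rose in control hearts and 7 in Vegfc-deficient hearts, among them Adgre1, the F4/80 antigen, with log2 fold changes of 1.79 (SE 0.395) and 1.59 (SE 0.339). Csf1r, the other defining marker, was at 169 to 332 CPM in naive and 273 to 369 CPM in MI libraries, and Cd68 at 75.8 to 527 and 202 to 524 CPM. Csf1r, Cd68 and Ly6c2 were not called in either genotype without M40 or without M900. With M149 left out, Csf1r was called higher in both genotypes and Cd68 in Vegfc-deficient hearts. Without M900 the count of macrophage markers called higher in Vegfc-deficient hearts was 4 of 10. The summed level was 1850 to 1910 CPM in naive and 3310 to 6190 CPM in MI controls, and in Vegfc-deficient hearts the ranges overlapped, at 1670 to 2360 CPM in naive and 2340 to 5000 CPM in MI libraries, and the part of macrophages in the receptor values was not tested. The transcription factor genes Cebpa and Spi1 (PU.1) rose in both genotypes, with log2 fold changes of 1.4 and 1.48 in control hearts and 1.21 and 1.05 in Vegfc-deficient hearts. Without M900 neither was called in Vegfc-deficient hearts, and without M40 Cebpa was not called in control hearts. In control hearts, of 17 ligand, receptor and adaptor genes tested, 8 rose and 1 fell after MI. In Vegfc-deficient hearts 7 rose and 1 fell. Fcer1g, the Fc receptor gamma chain used by both lectins, rose by a log2 fold change of 1.17 in control hearts and 0.85 in Vegfc-deficient hearts, and Card9, further down the same pathway, by 1.35 and 1.15. Tyrobp, which encodes DAP12, the partner of TREM1, rose in control hearts by 1.48 and had a value of 0.39 in Vegfc-deficient hearts (adjusted p = 0.377, edgeR). Il1r1 and Il1rap, the signalling receptor of interleukin 1 and its accessory protein, rose beside the decoy in both genotypes (1.19 and 1.53 in control, 1.34 and 1.27 in Vegfc-deficient hearts). Without M900 the count in Vegfc-deficient hearts was 5 of 17, and Fcer1g and Card9 were no longer called.

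No difference between the genotypes after MI passed the test in any of the 10 genes. Called genes were 0 of 10 and 0% of all genes (0 of 14779, edgeR; 1173 genes but none of the 10 had an unadjusted p under 0.05), and DESeq2 called 62 genes and 0 of the 9 members with an adjusted p (S100a8 had none). The MI control and MI Vegfc-deficient ranges overlapped for all 10 genes, where 12.1% of all genes did not overlap. The smallest adjusted p was 0.691, for Clec4e (log2 fold change 1.6, SE 0.978, edgeR). S100a8 was at 48 ± 66.1 CPM (SD, n = 3) in MI control and MI Vegfc-deficient hearts were at 21.7 ± 25.7 CPM (SD, n = 3), so that the SD exceeded the mean in both. S100a8 and S100a9 had log2 fold changes of -1.14 (SE 1.01) and -0.82 (SE 0.99), which turned to 1.14 and 1.22 without M40 and went to -2.77 and -2.40 without M900. Clec4e turned from 1.60 to -0.35 without M900 and was 2.24 without M40. The median over the 10 genes was 0.02 with all libraries, 0.93 without M40, -0.32 without M900 and -0.05 without both. Hdc, Trem1 and Lcn2 had positive values in all of these settings, and the other 7 genes were positive without M40 and negative without M900.

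**Figure D4:**
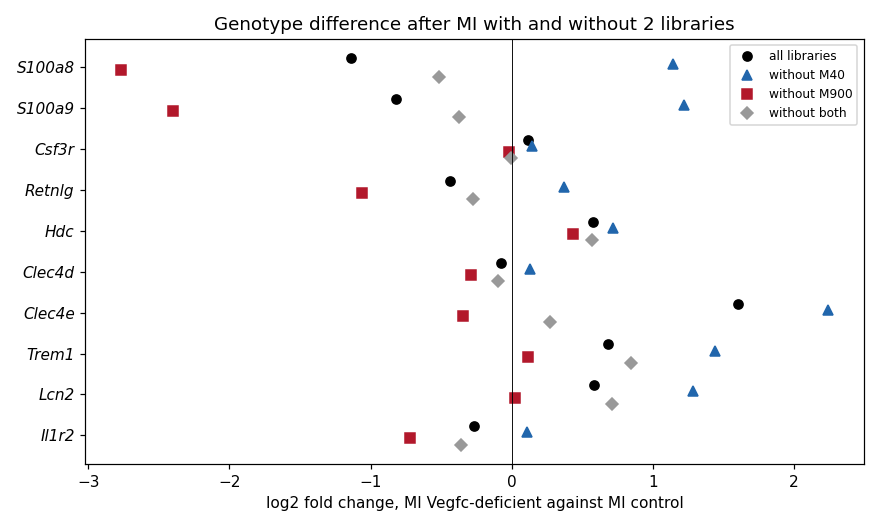
Log2 fold change of MI Vegfc-deficient against MI control hearts (horizontal axis) for each of the 10 genes (vertical axis), with all libraries and with M40, M900 or both left out; no error is drawn. S100a8 moves between -2.77 without M900 and 1.14 without M40, and the values without both lie nearer to 0 for S100a8, S100a9 and Clec4e.

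M40 was the highest MI control library for 9 of the 10 genes, Csf3r being the exception, where M40 was the highest for 32.6% of all genes. M900 was the highest MI Vegfc-deficient library for 10 of 10, against 36% of all genes. Both were the top 2 of the 6 MI libraries for 8 of the 10 genes, all but Csf3r and Hdc, and for 8.79% of all genes tested. M40 and M900 were singled out after the values of the 10 genes were seen, so these counts only describe that choice. The shares of all genes do not allow for it. They were compared for the granule genes outside the 10, since these mark the stage of the cells. In M40 the primary granule genes were high. Mpo, myeloperoxidase, was at 18.5 CPM in M40 and at 0.373 to 1.69 CPM in the other 5 MI libraries, M900 included (0.461 CPM). Elane, neutrophil elastase, was at 11.3 CPM in M40 and at most 1.12 CPM in the others, with 0.168 CPM in M900. The summed level of the 4 primary granule genes was 68.4 CPM in M40 and 1.59 CPM in M900, which lay at the low end of its group (1.57 and 8.34 CPM in the others). All 4 were called higher after MI in control hearts, a count that was 0 of 2 tested without M40.

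Of 10 secondary and tertiary granule genes tested, 7 were highest of their group in M40 and 8 in M900. The summed level was 619 CPM in M40, within the 374 to 750 CPM of its group, and 658 CPM in M900 against 302 to 522 CPM. Cyba and Cybb, subunits of the NADPH oxidase that macrophages share, were lower in M40 (320 and 181 CPM) than in M38 (391 and 315 CPM), and Cyba was lower in M900 (225 CPM) than in M913 (295 CPM). Ngp was at 18 CPM in M40 and 18.3 CPM in M900 against 0.338 to 1.02 CPM in the other MI libraries. Ltf, lactoferrin, was at 3.16 and 8.13 CPM against 0.161 to 0.507 CPM, and Camp, cathelicidin, at 14.2 and 3.73 CPM against 0.373 to 1.02 CPM. The order of the libraries thus differed between granule genes, M40 leading in Camp and M900 in Ltf. Mmp8, neutrophil collagenase, and Mmp9, gelatinase B, were highest in M900 (13.5 and 15.2 CPM) and next in M40 (8.55 and 5.98 CPM). Among these 10 genes, 4 rose and 1 fell after MI in control hearts (1 and 2 without M40), and 3 rose and 1 fell in Vegfc-deficient hearts (1 and 1 without M900). Mmp8 and Hp, haptoglobin, rose in both genotypes with all libraries, by log2 fold changes of 3.1 and 3.21 in control and 2.97 and 2.83 in Vegfc-deficient hearts, and only Hp was still called without M40 in control and without M900 in Vegfc-deficient hearts. Chil3, which macrophages also make, fell in both (-6.37 and -6.45). Its naive level was 580 and 601 CPM in controls, 1680 CPM in M149 and 26 and 54.2 CPM in M150 and M34, and without M149 the value in Vegfc-deficient hearts was -2.59 (adjusted p = 0.0345, edgeR). Without M40 the control value was -8.04.

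Of 13 mature neutrophil surface and cytosolic genes tested, 6 rose and 2 fell in control hearts, and 7 rose and 2 fell in Vegfc-deficient hearts. Fpr1, a receptor of bacterial formyl peptides, rose by log2 fold changes of 3.85 and 3.12. Il1rn, the interleukin 1 receptor antagonist, rose by 3.75 and 3.72. G0s2 and Lrg1, which other heart cells express as well, were the genes that fell in both. The summed level of the list was lower after MI, at 231 to 258 CPM in naive and 118 to 180 CPM in MI controls. In Vegfc-deficient hearts it was 238 to 264 CPM in naive and 142 to 185 CPM in MI libraries. G0s2 alone was at 183 to 218 CPM in naive and 26.3 to 68.4 CPM in MI libraries. Which cells the rising and falling genes came from was not tested. Counts of rising genes were 3 of 13 in control hearts without M40 and 4 of 12 in Vegfc-deficient hearts without M900, and Fpr1 and Il1rn were among both.

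M900 also held cytokine and chemokine transcripts that M40 did not hold at that level. Cxcl2, a ligand of CXCR2 that draws neutrophils, was at 41.2 CPM in M900, 8.51 CPM in M40 and 0.754 to 1.35 CPM in the other MI libraries. Cxcl3, another such ligand, was at 40.7 CPM in M900, 1.03 CPM in M40 and 0.0538 to 0.331 CPM in the others. Il1b was at 175 CPM in M900 and 9.81 to 32.2 CPM in the rest, and Il1a at 86 CPM against 0.331 to 1.18 CPM. These are the ligands that the decoy receptor Il1r2 binds, and Il1r2 itself was no higher in M900 (4.95 CPM) than in M40 (5.61 CPM). Of 6 chemokine genes tested, 3 rose in Vegfc-deficient hearts, Cxcl2, Cxcl3 and Cxcl5, and 1 fell, Pf4. Without M900 only Cxcl5 was called higher, and Il1b, called higher with all libraries at a log2 fold change of 3.76, was at 1.22 (adjusted p = 0.0404, edgeR). Cxcl5 was also the chemokine that rose in control hearts, by a log2 fold change of 4.7 (SE 0.482), against 4.14 (SE 0.375) in Vegfc-deficient hearts. Its levels were 5.32 to 12.4 CPM in all MI and at most 0.784 CPM in all naive libraries, with M40 the lowest MI library.

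**Figure D5:**
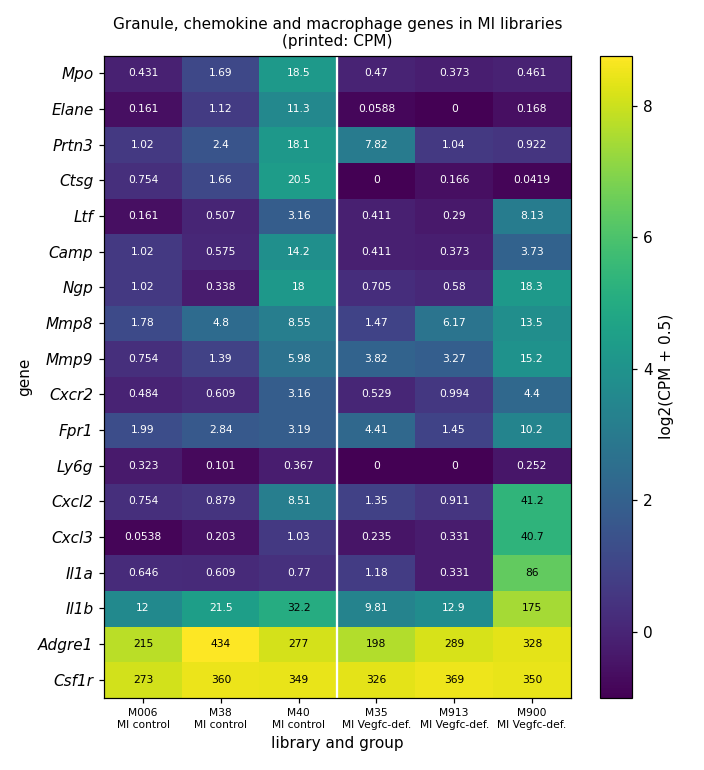
Levels of 18 granule, surface, chemokine, cytokine and macrophage genes (vertical axis) in the 6 MI libraries (horizontal axis), coloured by log2(CPM + 0.5) with the CPM printed in each cell. Mpo, Elane and Ctsg are high in M40 alone, Ngp is high in M40 and M900, and Cxcl3 and Il1a are high in M900 alone.

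The genes most like the 10 over the 6 MI libraries, by Pearson's r of log2 CPM with the mean of the 10, were 8030462N17Rik (r = 0.986), Ltf (0.983), Chil3 (0.974), 5830444B04Rik (0.973) and Slc16a4 (0.972). These are descriptions over 6 libraries that share M40 and M900 as the extremes. Without that pair, over M006, M38, M35 and M913 alone, r was 0.793, 0.991, 0.882, 0.791 and -0.261. Ltf had only 3, 15, 7 and 7 reads in these libraries. Among the 10, Retnlg (r = 0.903) and Il1r2 (0.899) were closest to the mean of the other 9, and Hdc (0.411) and Csf3r (0.48) the farthest.

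Naive hearts were compared as the baseline of the genotype difference. S100a8 was at 25.3 ± 0.359 CPM (SD, n = 3) in naive Vegfc-deficient and 5.9 ± 1.4 CPM (SD, n = 2) in naive control hearts, and S100a9 at 52.6 ± 12.2 and 10.5 ± 6.09 CPM. Log2 fold changes were 2.10 for S100a8 (SE 1.29), 2.33 for S100a9 (SE 1.25) and 1.45 for Retnlg (SE 0.799), all with an adjusted p of 1 by edgeR. The groups did not overlap for 5 of the 10 genes, with S100a8, S100a9, Retnlg and Trem1 higher and Lcn2 lower in Vegfc-deficient hearts, against 22.4% of all genes. For Trem1 this rested on 2, 2 and 7 reads in M149, M150 and M34 against 0 in both controls, in part below the floor of 3 reads. The nearest Lcn2 values were 9.52 CPM in M34 and 9.63 CPM in M44. No gene was called (0 of 10, 0% of all genes, edgeR; 499 genes had an unadjusted p under 0.05, of the 10 only Trem1), while DESeq2 called 14 genes and 0 of 9 members. The adjusted p of S100a8 was 0.204 with M40 and M900 left out and 0.0758 with only the naive libraries in the fit. Without M149, 17 genes were called by edgeR, 0 of them among the 10. Red cell markers summed to 1090 to 2440 CPM in naive control and 1890 to 4380 CPM in naive Vegfc-deficient libraries, and the 4 T cell markers to 3.48 to 3.53 and 7.75 to 12.1 CPM. The part of blood in these values was not tested.

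The library labelled naive Vegfc-deficient M149 did not stand in the same place for all genes, and its receptor genes did not go together. Its S100a8, S100a9 and Retnlg levels were those of M150 and M34, whereas its Csf3r, Clec4d and Clec4e levels were the highest of all naive libraries. Trem1 and Il1r2, also receptor genes, were at 0.196 and 0 CPM in M149, below M34. They had 2 and 0 reads in M149, 2 and 1 in M150, and 7 and 12 in M34. Counts under the floor of 3 reads cannot order M149 and M150. Without M149 the genotype difference in naive hearts turned from 0.02 to -0.99 for Csf3r, from 0.40 to -0.67 for Clec4d and from 0.30 to -1.02 for Clec4e, whereas it was 2.09 for S100a8 and 2.25 for S100a9.

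Per kilobase of exon, S100a9 was the most abundant of the 10 genes in naive libraries (median 74 CPM per kilobase), before S100a8 (35.9). In MI libraries the median was 49.4 CPM per kilobase for Clec4d, 35.2 for S100a9 and 14.2 for S100a8, but Clec4d was above S100a9 in only 3 of the 6, M38, M35 and M913, and S100a9 was above Clec4d in M006 (36.2 against 34.1), M40 (349 against 65.3) and M900 (184 against 63.3). Trem1 was the lowest in both, at 0.0655 and 0.669 CPM per kilobase. Over the MI libraries Clec4d varied least, with the highest library at 1.92 times the lowest, and S100a8 and Clec4e most, at 24.6 and 24.4 times.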

How the data were processed

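Total RNA of left ventricle was made into TruSeq Stranded mRNA libraries, 1 per mouse. Values deposited by the authors are unnormalized counts, with reads assigned to 25006 Ensembl genes, and the submitters' processing notes name cutadapt 1.13, STAR, HTSeq 0.6.1p1, DESeq2 1.14.1 and build mm10. The strand setting of the counting is not given in the sources used here. Groups came from the sample labels. Symbols were found for 24942 gene identifiers, and 64 had none; coordinates and exon lengths are those of GENCODE M21 on GRCm38.

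Genes were kept by filterByExpr by group and counts were scaled by TMM to CPM. Differences were tested in edgeR 4.0.16 (R 4.3.3) by its quasi-likelihood test, with all 11 libraries fitted together as 4 group means and the Benjamini-Hochberg method over 14779 genes, at a threshold of 0.05. The SE was the log2 fold change divided by the square root of F. The test was first run on simulated counts. Within groups, libraries differed by 8.65 to 172 times the counting noise (chi-square per degree of freedom), so a floor of 3 counts covers counting error only. The labels do not say whether the mice of a group shared a litter or cage. The p-values test differences of group means against the spread between mice within the groups. They do not allow for a shared litter or cage. Alternatives were the size factors and Wald test of DESeq2 1.42.0, limma-voom (limma 3.58.1) with quality weights, no filter, a mean CPM of at least 1, the compared groups alone, a threshold of 0.01 and each library left out. Singling out M40 and M900, leaving them out together, and recounting gene lists without single libraries were chosen after seeing the data.

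The 10 genes, the gene lists and the tests were chosen with earlier results of these data known. Named besides the 10 were the targeted gene, the Cre locus, sex-linked genes, the defining genes and up to 4 most abundant genes of each list, and the 5 genes with the largest r. Ngp, Fpr1, Il1a, Il1b, Il1rap, Card9, Csf3 and Cxcl3 were picked from the lists after their values were seen. Lists of B cell, basophil and lung epithelium markers were also read. Basophil markers summed to at most 1.06 CPM and lung markers to at most 2.16 CPM. Only 1 lung marker, Scgb1a1, was tested, and it was called lower after MI in both genotypes (log2 fold changes -5.44 and -4.39, edgeR). In Vegfc-deficient hearts that call was lost without M900. Its reads were 15, 5 and 22 in M44, M45 and M149, 0 and 2 in M150 and M34, and at most 1 in any MI library. B cell markers were at 5.44 to 28.5 CPM, with 0 of 4 called after MI in either genotype by edgeR (1 of 4 at an unadjusted p under 0.05 in each).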

Additional observations from a re-analysis of the deposited data

How the results depend on the processing

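Calls among the 10 genes numbered 2 after MI in control hearts and 5 in Vegfc-deficient hearts. In control hearts the count was 4 with the DESeq2 Wald test (of the 9 with an adjusted p), limma-voom and the compared groups alone, and 2 to 4 with a library left out. In Vegfc-deficient hearts it was 3 with the compared groups alone, 1 at a threshold of 0.01, and 3 to 5 with a library left out. Clec4d and Trem1 were called in control hearts in every setting run. Between genotypes, and for the interaction, 0 of the 10 were called in every setting run (0 of 9 with DESeq2, which gave S100a8 no adjusted p). Signs of single genes turned in some settings, each time without a call. After MI these were Hdc in control hearts (-0.00122 with DESeq2 size factors, -0.00146 with the Wald test, -0.113 without M40 and M900, -0.0776 to 0.22 with a library left out), and in Vegfc-deficient hearts S100a8 (-1.89 to 0.244 with a library left out), S100a9 (-1.98 to 0.115) and Lcn2 (-0.317 to 0.524, -0.0158 with limma-voom, -0.316 without M40 and M900). Between MI genotypes, values with a library left out ran from -2.77 to 1.14 for S100a8, -2.4 to 1.22 for S100a9, -0.126 to 0.374 for Csf3r (-0.00429 without M40 and M900), -1.06 to 0.369 for Retnlg, -0.309 to 0.128 for Clec4d, -0.348 to 2.24 for Clec4e and -0.723 to 0.11 for Il1r2. Between naive genotypes they ran from -0.985 to 0.388 for Csf3r (-0.545 with limma-voom), -0.0509 to 0.407 for Hdc, -0.674 to 0.758 for Clec4d (-0.238 with limma-voom) and -1.02 to 0.748 for Clec4e (-0.534 with limma-voom). Causes were not tested. No paired analysis was possible because the labels give the mice no numbers shared between groups. Depth limits Trem1 and Il1r2, which had 0 to 12 reads in naive libraries.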
